A study of Mus musculus with 6 samples.

Results

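Immune cell, chemokine and antigen presentation genes were examined in Wnt/β-catenin dependent hepatocellular carcinoma (HCC) and in normal liver of mice. The members were the mRNA probes of the authors' table whose RefSeq accession belongs to a gene symbol beginning with Ccl, Ccr, Cxcl, Cxcr, Il and a digit, Tnf, Cd and a digit, H2-, Fcgr, Tlr, Clec or Lilr, or to Adgre1. This gave 43 probes of 40 genes, out of 2280 mRNA probes and 2114 named genes in that table. By function, 6 genes serve antigen presentation, 7 are chemokines and 14 were grouped as cytokines and receptors. The 14 include Tnfaip1, Tnfaip2 and Tnfaip8, TNF-induced genes taken in by the start of their symbols. A further 7 mark macrophages and other myeloid cells, 1 marks lymphoid cells and 5 are other surface proteins. The table is preselected. It lists only probes that the authors had called between HCC and normal liver, so a gene of these families that is not among the 40 was not named here, and nothing is known of it from these data.

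RNA came from the liver of C57Bl/6 mice aged 12 months. The tumour group, Apcfl/fl, carries a hypomorphic floxed Apc allele on both copies and the mice develop HCC, whereas Apc+/+ mice carry the wild-type allele and gave healthy control liver. Neither group received a drug or carcinogen according to the labels, and no Cre driver is named for these mice. There were 3 arrays per group. As the first and second Apcfl/fl replicates agreed within the technical noise of the arrays, they were counted as 1 sample, leaving 2 HCC samples against 3 normal livers. The methods count each group in mice, but the labels tie no array to an animal, and the p-values measure the spread between these samples.

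Innate immune cells sense microbial and tissue damage through surface receptors such as the Toll-like receptors and Cd14, and resident macrophages (Kupffer cells) are the main such cells of the liver. Chemokines are small secreted proteins that guide leukocytes, each through a few receptors. Antigen-presenting cells load peptides onto MHC class II molecules, with Cd74 (the invariant chain) holding the groove until the H2-DM proteins exchange its last fragment for a peptide. In whole tissue, fewer cells of a type and less RNA per cell cannot be told apart.

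The adjacent genes H2-DMb2 and H2-DMb1 encode alternative β chains of H2-DM, and their promoters are shown because both genes had the same pattern over the arrays, described below. The stretches are RefSeq sequence of GRCm38.p6, on the plus strand, 5′ to 3′. Capitals mark a match to the core of the X box (AACNGATG) and then the inverted CCAAT motif (ATTGG), elements known from class II promoters. Motif letters were settled after promoters of members had been read.
H2-DMb1, chr17:34153087-34153146: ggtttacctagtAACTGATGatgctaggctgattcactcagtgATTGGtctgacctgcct
H2-DMb2, chr17:34145116-34145175: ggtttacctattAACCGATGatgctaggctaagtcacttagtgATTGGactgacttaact

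The Cxcl10 promoter is shown because this chemokine had the largest positive change of its class. It is given on the minus strand, with capitals for a match to the interferon-stimulated response element (GAAANNGAA) and to a κB element (GGGANNTTC).
Cxcl10, chr5:92349028-92349114: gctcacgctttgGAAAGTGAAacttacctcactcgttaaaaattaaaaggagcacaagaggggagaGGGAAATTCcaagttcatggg

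Promoter sequence was found for 27 of the 40 genes, and the 250 bases before each start were searched on both strands. The other genes could not be searched, so a gene not named below is not shown to lack a motif. The X box letters occurred in 1.98% of 32851 promoters and, among the members, in those of H2-DMb1, H2-DMb2 and Fcgr2b. The promoters of H2-DMb1 and H2-DMb2 also held the inverted CCAAT motif downstream of it, and that of Fcgr2b did not. The promoter of H2-DMa held the inverted CCAAT motif but not the X box letters, although H2-DMa had the largest change of the class II pathway. The response element occurred in 7.13% of all promoters and in those of Cxcl10, Tlr6 and Tnfrsf14. The κB letters occurred in 3.23% and, among the members, in Cxcl10 only, and the short inverted CCAAT motif in 33.8% and in 11 members. The motifs do not overlap in the stretches shown. A match of letters is a description and not a bound site.

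Of the 40 genes, each read by its brightest listed probe, 31 had a higher and 9 a lower mean in Apcfl/fl HCC. The 9 include Fcgr2b, whose dimmer probe went the other way. With limma and Benjamini-Hochberg adjustment over all 45640 tested probes, 10 genes had an adjusted p below 0.05 with a change of at least 2-fold, against 1.92% of all tested probes (1.03% higher and 0.896% lower). Cd14, Tlr6, Cd63, H2-T10, Il18bp, Tnfrsf12a, Tnfsf13 and Tnfsfm13 rose, and Ccl21b and Ccl27b fell. At an unadjusted p of 0.05 or less with the fold limit kept, 39 genes passed, against 11.2% of all tested probes (5.36% higher and 5.85% lower). The HCC arrays lay wholly above or wholly below the normal livers for 40 of 40 genes, against 33.8% of all tested probes (17.4% above and 16.4% below). Because the table was selected on this same contrast, nothing is read from these shares. With the 6 arrays as 6 samples 26 genes passed the adjusted threshold, against 7.54% of all tested probes (3.44% higher and 4.1% lower). No gene passed by limma without Apc+/+ replicate 1, 2 or 3, where 27, 36 and 30 genes passed the unadjusted threshold. Shares of all tested probes were not computed for these settings, so nothing is read from these counts. Leaving out Apcfl/fl replicate 3 left 1 HCC sample, and only class medians are given for it below.

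**Figure D1:**
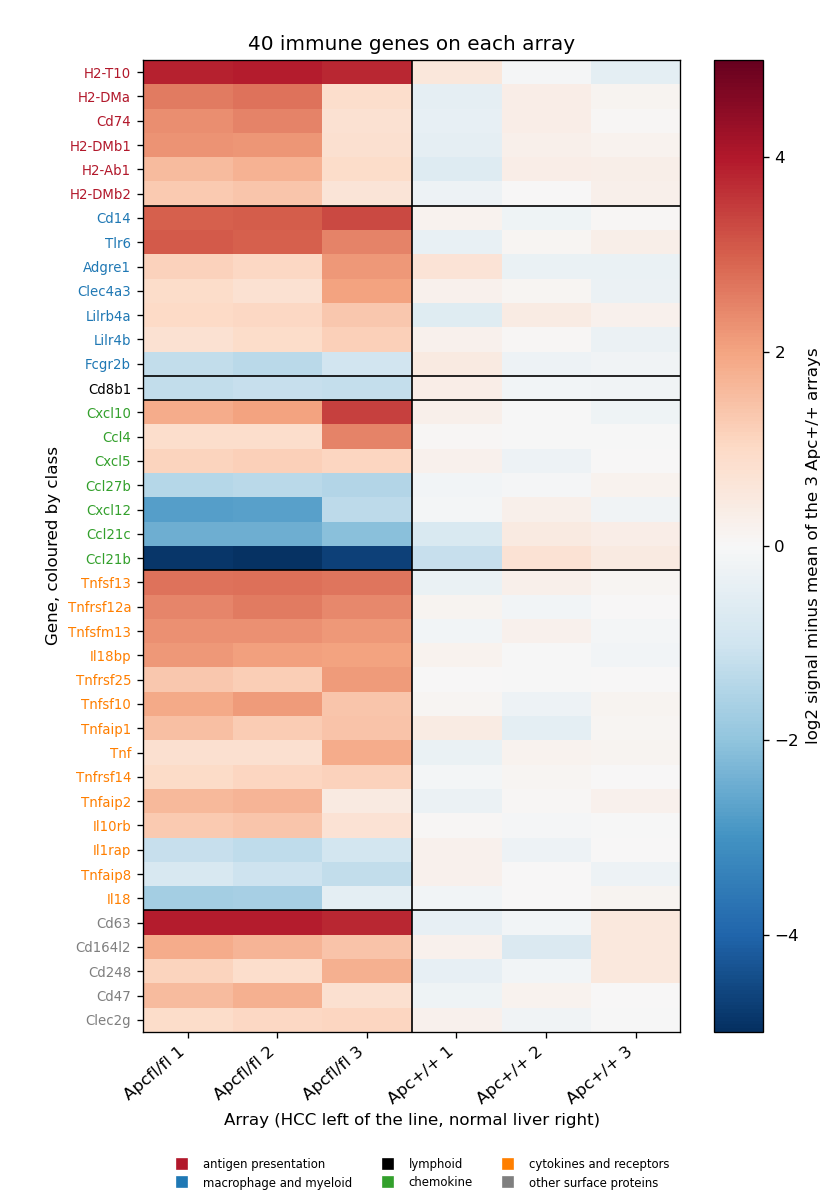
Normalised log2 signal of each of the 40 genes (rows, grouped and coloured by class) on each of the 6 arrays (columns), minus the mean of the 3 Apc+/+ arrays. The colour scale runs from -5 (blue) to 5 (red), and Ccl21b is the most strongly blue row on all 3 HCC arrays.

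Expression of the class II pathway genes was higher in Apcfl/fl HCC by about 2 to 3.4-fold, but unequally between the HCC samples, and none of the 5 passed the adjusted threshold. Cd74 had a log2 signal of 12.90, 13.07 and 11.35 in Apcfl/fl HCC against 10.20, 10.93 and 10.65 in Apc+/+ liver. All HCC arrays were above all normal livers, with Apcfl/fl replicate 3 closest to them. The log2 change was 1.57 (SE 0.54, adjusted p = 0.225 by limma), from 12.17 ± 1.16 (SD, n = 2) against 10.59 ± 0.37 (SD, n = 3). A dimmer probe of Cd74 gave nearly the same change, 1.58 (SE 0.36, adjusted p = 0.108).

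H2-DMa, the α chain of H2-DM, had log2 signals of 11.67, 11.78 and 9.94 in Apcfl/fl HCC against 8.59, 9.39 and 9.19 in Apc+/+ liver. Its change of 1.78 (SE 0.59, adjusted p = 0.210) was the largest of the class II pathway. H2-DMb1 had 9.72, 9.68 and 8.29 against 7.05, 7.75 and 7.66, a change of 1.51 (SE 0.49, adjusted p = 0.202). In both genes replicate 3 lay between the other HCC arrays and the normal livers. H2-DMb2 lies next to them on chromosome 17 and is similar enough in sequence that a probe may read both β chains. It had 8.13, 8.19 and 7.47 against 6.54, 6.83 and 7.06, with replicate 3 again between. Its change was 1.0 (SE 0.30, adjusted p = 0.180). H2-Ab1, the β chain of the class II molecule H2-A, was bright on every array, with 14.79, 14.95 and 14.11 against 12.57, 13.54 and 13.49, and changed by 1.29 (SE 0.42, adjusted p = 0.204).

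H2-T10, a non-classical class I molecule recognised by γδ T cells, was the antigen presentation gene that rose past the adjusted threshold. Its log2 signal was 10.65, 10.74 and 10.60 in Apcfl/fl HCC and 7.38, 6.76 and 6.32 in Apc+/+ liver. The 3 HCC arrays were close to each other and more than 3 log2 units above the highest normal liver. The log2 change was 3.83 (SE 0.35, adjusted p = 0.0218), a fold of 14.3. Related class I genes may add to the signal of its probe.

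Among the macrophage and myeloid genes, the microbial sensors Cd14 and Tlr6 rose. Cd14, a co-receptor for lipopolysaccharide that hepatocytes can also make, had log2 signals of 8.22, 8.26 and 8.51 in Apcfl/fl HCC and of 5.38, 4.99 and 5.27 in Apc+/+ liver. Its change was 3.16 (SE 0.22, adjusted p = 0.0167), from 8.37 ± 0.19 (SD, n = 2) against 5.21 ± 0.20 (SD, n = 3). The normal level of Cd14 was dimmer than the brightest negative-control probe, which had 5.50, and this leaves the size of the rise uncertain. Tlr6, which pairs with Tlr2 to detect bacterial lipopeptides, had 10.76, 10.68 and 10.20 against 7.32, 7.79 and 7.99, a rise of 2.76 (SE 0.30, adjusted p = 0.0312). Every HCC array exceeded every normal liver by over 2 log2 units for both genes.

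The macrophage marker Adgre1 had log2 signals of 7.08, 6.96 and 8.08 in Apcfl/fl HCC and of 6.58, 5.57 and 5.59 in Apc+/+ liver. The groups did not overlap, but replicate 3 was highest among the HCC arrays and Apc+/+ replicate 1 approached Apcfl/fl replicate 2. The change of 1.64 (SE 0.48, adjusted p = 0.170) did not pass the threshold. Clec4a3, a myeloid C-type lectin, was also highest on Apcfl/fl replicate 3, with 6.85, 6.73 and 7.95 against 6.16, 6.04 and 5.65 and a change of 1.42 (SE 0.40, adjusted p = 0.160). Lilrb4a and Lilr4b, neighbouring and highly similar receptors of the leukocyte immunoglobulin-like family, changed by 1.19 (SE 0.37, adjusted p = 0.193) and 1.02 (SE 0.25, adjusted p = 0.125), and one probe may read both.

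Fcgr2b, the inhibitory Fc receptor for IgG, which in liver is also found on sinusoidal endothelium, was read by 2 listed probes whose changes had opposite signs, neither past the adjusted threshold. The brighter, for NM_010187, had 8.74, 8.62 and 9.02 in Apcfl/fl HCC against 10.44, 9.71 and 9.79 in Apc+/+ liver, a change of -1.13 (SE 0.30, adjusted p = 0.144). The dimmer, for NM_001077189, had 7.63, 7.50 and 6.67 against 5.40, 5.79 and 5.83, a change of 1.44 (SE 0.34, adjusted p = 0.112). Each probe separated the 6 arrays by group, on opposite sides. Which exons the probes read is not known here, and no single direction is given for the gene. The mean of the probes changed by 0.16 (adjusted p = 0.730, against a range of 0.0380 to 0.730 over all alternatives).

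**Figure D2:**
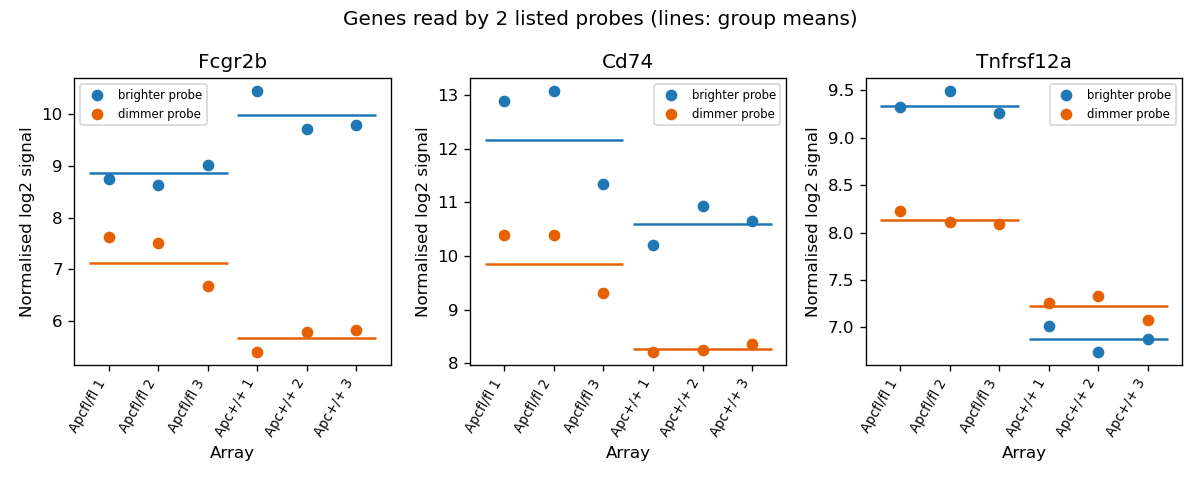
Normalised log2 signal on each array (points) of the brighter and the dimmer listed probe of Fcgr2b, Cd74 and Tnfrsf12a. Horizontal lines are group means, with Apcfl/fl replicates 1 and 2 averaged first. The probes of Fcgr2b changed by -1.13 and 1.44, while those of Cd74 and Tnfrsf12a were each higher in HCC.

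Beyond the members, a list of 51 macrophage and myeloid markers held 8 genes named in the preselected table. Of these 6 were higher and 2 lower, with Fcgr2b counted by its brighter probe, and 2 passed the adjusted threshold. The eighth, which the family names did not select, was Marco, a scavenger receptor of Kupffer cells. Its log2 signal was 5.49, 5.05 and 7.73 in Apcfl/fl HCC and 10.09, 10.34 and 10.42 in Apc+/+ liver, a change of -3.78 (SE 0.73, adjusted p = 0.0789), opposite in sign to Adgre1. Over the 8 genes the mean log2 signal was 7.81 to 8.54 on the HCC arrays and 7.36 to 7.48 on the normal livers.

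Of 42 lymphoid markers 1 was named. This was Cd8b1, the β chain of the co-receptor of cytotoxic T cells, with log2 signals of 8.13, 8.22 and 8.20 in Apcfl/fl HCC and of 9.70, 9.23 and 9.19 in Apc+/+ liver. The HCC arrays were within 0.1 of each other and below every normal liver. The change was -1.18 (SE 0.24, adjusted p = 0.0861) and did not pass the adjusted threshold. With 1 gene against 7, lymphoid and myeloid genes cannot be compared as classes, and the other lymphoid markers were not analysed here.

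Chemokines differed in direction, with 3 genes higher and 4 lower, and no chemokine receptor was among the members. Ccl21b fell, a gene for the ligand of Ccr7 that draws T cells and dendritic cells to lymphoid tissue. Its log2 signal was 5.35, 5.30 and 5.56 in Apcfl/fl HCC and 9.07, 10.96 and 10.66 in Apc+/+ liver, with the lowest normal liver over 3 log2 units above the highest HCC array. The change was -4.79 (SE 0.61, adjusted p = 0.0393), and since the HCC mean of 5.44 lay below the brightest negative-control probe its size is uncertain. Ccl21c, a near-identical copy, had 8.30, 8.31 and 8.63 against 9.96, 11.17 and 11.07, a change of -2.27 (SE 0.43, adjusted p = 0.0763).

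Ccl27b lies near Ccl21b on chromosome 4 with 5 coding genes between, and is a copy of the gene for Ccl27, a chemokine best known from skin. It fell, from 9.01, 9.10 and 9.31 in Apc+/+ liver to 7.72, 7.80 and 7.69 in Apcfl/fl HCC, a change of -1.42 (SE 0.20, adjusted p = 0.0462). Near-identical copies of the Ccl21 and Ccl27 genes exist in the mouse genome, so each of these probes may read several genes. Cxcl12, the ligand of Cxcr4 that retains leukocytes in tissues, was lower with 9.97, 9.99 and 11.41 against 12.61, 12.96 and 12.55, a change of -2.01 (SE 0.46, adjusted p = 0.109). Here replicate 3 was again set apart, lying closer to the normal livers.

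The chemokines with higher signal are inducible leukocyte attractants. Cxcl10, an interferon-induced ligand of Cxcr3 on activated T cells, had log2 signals of 8.67, 8.81 and 10.24 in Apcfl/fl HCC and of 7.06, 6.79 and 6.59 in Apc+/+ liver, a change of 2.68 (SE 0.48, adjusted p = 0.0693). Ccl4, a chemokine made by activated macrophages and lymphocytes, had 9.02, 8.99 and 10.60 against 8.18, 8.09 and 8.10, a change of 1.68 (SE 0.49, adjusted p = 0.169). For both, the highest array was Apcfl/fl replicate 3. Cxcl5, a neutrophil attractant, had 5.10, 5.19 and 5.08 against 4.21, 3.76 and 4.04, a change of 1.11 (SE 0.22, adjusted p = 0.0822) at a level below the brightest negative-control probe in both groups. The size of the Cxcl5 change is uncertain, with a range of 0.25 to 1.21 over the alternatives.

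Among the 14 genes of the cytokine and receptor class, 4 rose past the adjusted threshold, 7 more had higher and 3 had lower means. Of the ligands, Tnfsf13 (APRIL), a survival factor for B and plasma cells, had log2 signals of 9.82, 9.85 and 9.77 in Apcfl/fl HCC and of 6.76, 7.33 and 7.19 in Apc+/+ liver, a rise of 2.71 (SE 0.25, adjusted p = 0.0213). The overlapping Tnfsfm13, a read-through of the neighbouring Tnfsf12 gene into Tnfsf13, rose by 2.24 (SE 0.21, adjusted p = 0.0223), from 4.59, 4.95 and 4.63 to 7.01, 7.02 and 6.91. Its normal level was dimmer than the brightest negative control, and the size is uncertain, ranging from 1.11 to 2.37 over the alternatives. The pair of genes shares sequence, so their probes are not independent measures. Tnf itself had 7.91, 7.90 and 8.95 against 6.78, 7.30 and 7.25, a change of 1.32 (SE 0.38, adjusted p = 0.167), and Tnfsf10 (TRAIL), a death-inducing ligand, changed by 1.69 (SE 0.28, adjusted p = 0.0610). For Tnfsf10, too, the normal level was under the brightest negative control and the size is uncertain, with a range of 0.67 to 2.01 over the alternatives.

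Of the receptors, Tnfrsf12a (Fn14), which binds the cytokine TWEAK and is induced in injured epithelium, rose by 2.46 (SE 0.20, adjusted p = 0.0194). Its log2 signal was 9.33, 9.49 and 9.26 in Apcfl/fl HCC and 7.01, 6.74 and 6.88 in Apc+/+ liver, so that the groups were far apart compared with the spread within either. A dimmer probe of the gene changed by 0.91 (SE 0.19, adjusted p = 0.0924), in the same direction. Tnfrsf25, a death domain receptor of T cells, changed by 1.70 (SE 0.30, adjusted p = 0.0651), Tnfrsf14 by 1.09 (SE 0.19, adjusted p = 0.0633) and Il10rb, a subunit shared by several cytokine receptors, by 1.03 (SE 0.25, adjusted p = 0.122).

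Il18bp, the soluble inhibitor of Il18, rose by 2.06 (SE 0.20, adjusted p = 0.0238), with log2 signals of 10.69, 10.58 and 10.51 in Apcfl/fl HCC and 8.69, 8.48 and 8.36 in Apc+/+ liver. Il18, a cytokine of macrophages and epithelia, had 11.88, 11.95 and 13.11 against 13.44, 13.62 and 13.72, a change of -1.08 (SE 0.39, adjusted p = 0.248) that did not pass. Il18bp was alike on the 3 HCC arrays, whereas for Il18 replicate 3 lay near the normal livers. Il1rap, the co-receptor of the interleukin-1 family, had 8.39, 8.24 and 8.60 against 9.74, 9.29 and 9.55, a change of -1.07 (SE 0.23, adjusted p = 0.0975).

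The TNF-induced genes were mixed. Tnfaip8 was lower, with 8.44, 8.22 and 8.0 in Apcfl/fl HCC against 9.45, 9.27 and 9.0 in Apc+/+ liver and a change of -1.07 (SE 0.24, adjusted p = 0.101). Tnfaip1 had a change of 1.41 (SE 0.32, adjusted p = 0.104) at a level below the brightest negative-control probe, with a range of 0.25 to 1.62 over the alternatives. Tnfaip2 changed by 1.04 (SE 0.42, adjusted p = 0.284) and was the member that missed the unadjusted threshold here.

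All 5 other surface proteins had higher means in Apcfl/fl HCC. Cd63, a tetraspanin of late endosomes and secreted vesicles, rose by 3.84 (SE 0.33, adjusted p = 0.0196). Its log2 signal was 8.76, 8.77 and 8.60 in Apcfl/fl HCC and 4.44, 4.71 and 5.37 in Apc+/+ liver, and with the normal level under the brightest negative control the size is uncertain. Cd248 (endosialin), found on stromal cells and pericytes, had 9.81, 9.58 and 10.48 against 8.30, 8.57 and 9.21, a change of 1.40 (SE 0.39, adjusted p = 0.156). Cd47, the signal that restrains phagocytosis, changed by 1.25 (SE 0.33, adjusted p = 0.135). Cd164l2, with 6.52, 6.37 and 6.07 against 4.86, 3.92 and 5.19, changed by 1.60 (SE 0.43, adjusted p = 0.143). Its normal level was below the brightest negative-control probe. Clec2g changed by 1.01 (SE 0.21, adjusted p = 0.0877) at a level below that probe in both groups, and by 0.15 with normexp background correction.

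**Figure D3:**
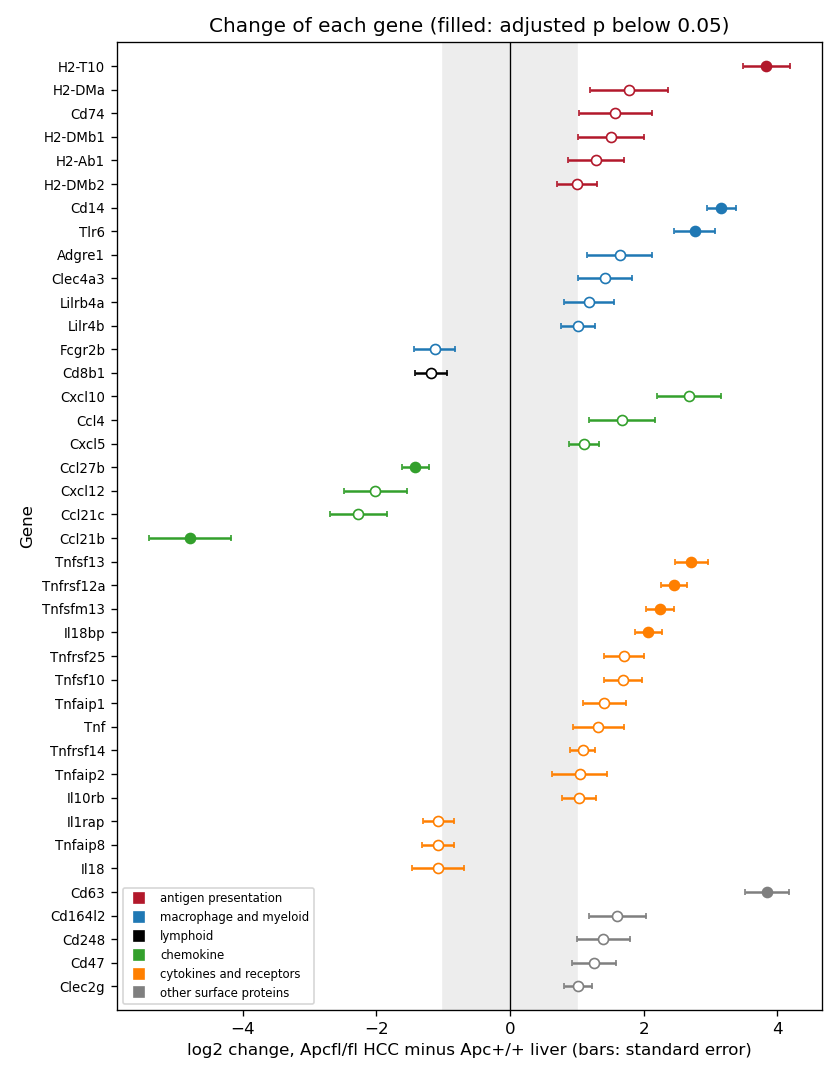
Log2 change from Apc+/+ liver to Apcfl/fl HCC of each gene (points) with its standard error (bars), grouped and coloured by class. Filled points passed the adjusted threshold and the grey band marks changes under 2-fold. The 10 filled points range from Ccl21b at -4.79 to Cd63 at 3.84.

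As a class, the median log2 change was 1.54 for antigen presentation, 1.42 for macrophage and myeloid genes, 1.37 for cytokines and receptors, 1.40 for other surface proteins and -1.42 for chemokines. Over all 40 genes it was 1.36, beside 0.06 over all tested probes. As every listed gene had been selected for a change of at least 2-fold, medians near these sizes follow from the table, and the classes were not tested against each other.

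The position of the HCC samples relative to each other was then set out by class, without a test. Apcfl/fl replicate 3 was below the mean of replicates 1 and 2 for 6 of 6 antigen presentation genes, with a median difference of -1.40 on the log2 scale for the 5 class II pathway genes and a difference of -0.09 for H2-T10. It was above that mean for 6 of 7 macrophage and myeloid genes by their brightest probes, with Tlr6 below, and for 5 of 7 chemokines. For Fcgr2b the brighter probe, which was counted, gave 0.34 and the dimmer probe -0.89. The largest such differences were -1.78 for H2-DMa and -1.64 for Cd74 in one direction, and 1.60 for Ccl4 and 1.5 for Cxcl10 in the other. Over all 40 genes 20 were above and 20 below, and over all tested probes 51.69% were above with a mean absolute difference of 0.56. That mean was 1.26 for the class II pathway genes and 0.58 for macrophage and myeloid genes, so the latter were about as far apart as probes in general. This is 1 array against the mean of 2 that count as 1 sample, so it has no replicate check.

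The class medians moved with the HCC sample used. Without replicate 3 the median change was 2.30 for antigen presentation and 1.0 for macrophage and myeloid genes. From replicate 3 alone, an alternative chosen after the data were seen, it was 0.85 and 2.0. Genes past the adjusted threshold varied less, as a test that weighs change against spread favours. Among them the difference was -0.52 for Tlr6 and between -0.17 and 0.27 for the rest.

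**Figure D4:**
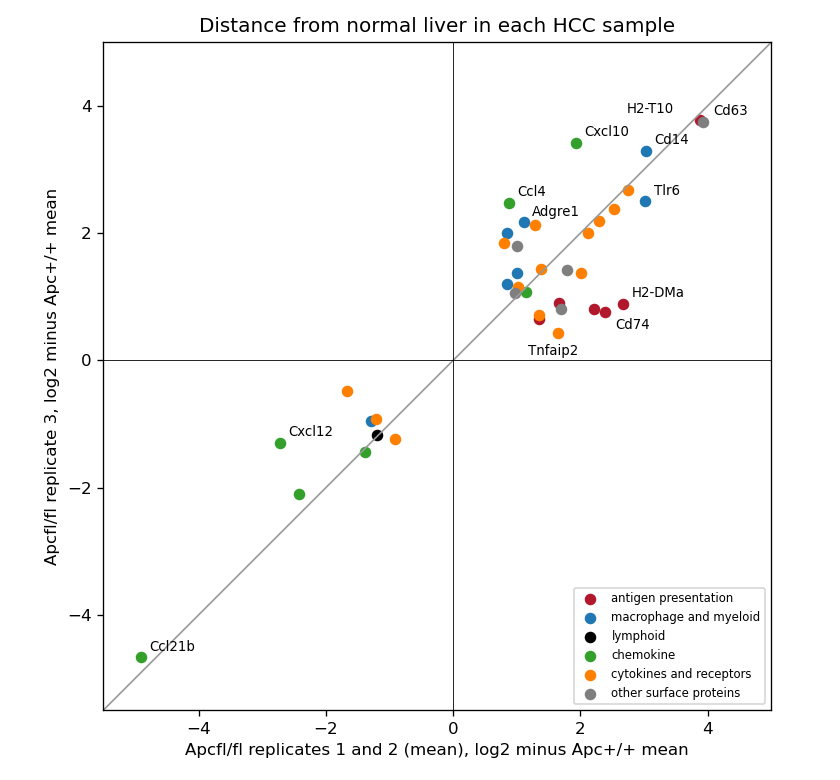
Distance from the Apc+/+ mean on the log2 scale in Apcfl/fl replicates 1 and 2 (horizontal, their mean) and in replicate 3 (vertical), 1 point per gene, with the line of equal distance in grey. The class II genes Cd74 and H2-DMa lie below the line, while Adgre1, Ccl4 and Cxcl10 lie above it.

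Markers of other cells could be named only where the authors had called them on this same contrast. That the named ones differ between the groups was thus fixed by the table, and the unlisted ones were not seen. All 4 named hepatocyte markers of 6 listed were lower in Apcfl/fl HCC, with a mean log2 signal of 11.04 to 11.40 against 13.30 to 13.65, and Cyp2e1 passed the adjusted threshold. The named endothelial marker of 10 listed, Pecam1, was at 5.10 to 5.96 against 6.90 to 7.22 and did not pass (adjusted p = 0.0924). The neutrophil list of 6 held Lcn2, at 14.59 to 15.32 against 7.33 to 8.30, and the biliary list of 5 held Spp1, at 12.33 to 13.89 against 7.41 to 8.52, both of which rose and are also made by other cells. None of 8 stellate cell markers was named. The part of these cell types in the changes above was not tested.

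Array quality and position were partly tied to the groups. Of all probes, 70.7% to 76.5% were well above background in HCC and 50.8% to 82.8% in normal liver, with the lowest share for Apc+/+ replicate 2, where 8 of the members were not well above background. Negative-control spots were also called so, 24.8% to 31.7% of them on the HCC arrays. For Apc+/+ replicates 1, 2 and 3 the share was 42.6%, 8.25% and 57.6%. The call alone therefore does not show that a dim gene was detected, least of all on Apc+/+ replicates 1 and 3. No probe spot was saturated. Row 1 of the slide held the 3 HCC arrays together with Apc+/+ replicate 1, and row 2 held the other normal livers. Blocking on the slide row, no member passed the adjusted threshold by limma and 27 passed the unadjusted one. Within row 1, against Apc+/+ replicate 1 only and without a test, 34 of 40 genes differed by at least 2-fold. Adgre1 was at 0.97 and Ccl21b at -3.63. All 40 kept their direction, which had to be so because the groups did not overlap for any of them. The genes were preselected on this contrast, and shares of all tested probes were not computed for the counts by slide row. Nothing is read from these counts.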

How the data were processed

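Total RNA was depleted of rRNA, amplified by random priming, labelled with Cy3 as cRNA and hybridised to the Arraystar mouse lncRNA array V2.0, 1 colour and 6 arrays. The authors extracted the scans with Agilent Feature Extraction (version 11.0.1.1). The deposited scanner files hold background-subtracted intensity per spot on a linear scale, not normalised between arrays. The authors' deposited table holds log2 values, quantile normalised, of the 4197 distinct probes they called. It was used to name probes, to pick the brightest probe of a gene and as an alternative. Its fold change and p-value columns were not used.

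From the scanner files, control and flagged spots were removed, log2 processed intensity was averaged over the spots of each probe, and 59631 probes were quantile normalised. A probe was tested if well above background on at least 3 arrays, which left 45640. The contrast was fitted in limma (version 3.58.1, under R 4.3.3), two-sided, without covariates, as Apcfl/fl minus Apc+/+. The mean chi-square between Apcfl/fl replicates 1 and 2 was 0.774 over 29685 probes, below the limit of 1, and they were averaged. Apc+/+ replicates 2 and 3 were also close, at 1.99, while Apc+/+ replicate 1 was at 6.37 and 7.56 from them. As 1.99 is above the limit, Apc+/+ replicates 2 and 3 were averaged only as an alternative. Values after ± are SD over samples. The number of arrays limits the precision. The fit was tested on simulated data, with known changes put into independent samples and the spreads shuffled over probes. The simulation held no slide row and no arrays that were alike, so it does not bear on either.

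Of 2280 mRNA accessions 2239 matched a RefSeq gene table of GRCm38.p6, and probe coordinates were not used. Per-array values are given for Cd74, Adgre1, Ccl21b, members past the adjusted threshold and the 3 largest rises and falls of each class, and some others. The members and lists were chosen with earlier results of these data known. Alternatives covered background correction, scaling, filters on dim probes, sample counting, blocks, the methods' t-test, averaging probes and leaving out arrays. The files hold no mean spot signal, so normexp (offset 50) used the median spot signal. A change of class median was set against the median replicate SD of its members. A probe for Apc was not identified and is not reported here.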

Additional observations from a re-analysis of the deposited data

How the results depend on the processing

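The number of members past the adjusted threshold was 10, with 8 higher and 2 lower. It was 6 without a filter on dim probes (0 lower), 26 with 6 arrays (18 higher, 8 lower), 16 by the methods' t-test after Benjamini-Hochberg (4 lower) and 17 among probes brighter than the brightest negative control (6 lower), the last chosen after the data were seen. Those lower numbered 1 after scaling to the 75th percentile and 5 with probes well above background on all 6 arrays. By limma 0 passed with Apc+/+ replicates 2 and 3 averaged or with the slide row as a block, where 35 and 27 passed the unadjusted threshold. Leaving out 1 array other than Apcfl/fl replicate 3 gave 0 to 10 in all, 0 to 8 higher and 0 to 2 lower. The unadjusted count of lower genes, 9, then ranged from 5 to 9. Shares of all tested probes were computed only for the main fit and for 6 arrays as 6 samples. As the members were preselected on this contrast, nothing is read from the other counts. The antigen presentation median, 1.54, was 0.85 to 2.30 between the HCC samples and the myeloid median, 1.42, was 1.0 to 2.0. Leaving out 1 array at a time gave 1.34 to 2.30 for the first and 1.0 to 1.52 for the second. With normexp the myeloid median was 1.0 and the cytokine median 0.90 instead of 1.37. The latter was 1.09 with probes well above background on all 6 arrays. The mean of the Fcgr2b probes, 0.16, turned its direction. No other change of a gene or class median turned. Of 214 recomputed counts and medians 174 stayed within the limits set, and of 827 recomputed changes of single genes 687 stayed on the same side of the threshold or, where no test was run, within the replicate spread. A gene that missed the threshold in the main fit and again in an alternative counts as having stayed. Only the 10 members that passed could lose the threshold, so the 687 do not measure how stable those 10 calls were. Replicate numbers did not pair the arrays (r of deviations 0.06, -0.07 and 0.04), and with the replicate block 10 members passed, 9 of them shared. The causes were not tested. With 2 HCC samples, changes of members missing the threshold are not shown to be absent, and 9 members had a group mean dimmer than the brightest negative control.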

Other observations

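Genes named for interferon were not part of the families above, and were taken by the start of their symbols (Ifi, Ifit, Isg, Oas, Irf, Gbp, Irgm, Tgtp) or as Rsad2 and Usp18 after values had been seen, without a test of the group. The authors' preselected table named 24 of them, of which 23 had higher means in Apcfl/fl HCC and 1, Irf2, a lower mean with a log2 change of -1.11 (adjusted p = 0.198 by limma). The median change was 2.99, and 10 passed the adjusted threshold, all higher, against 1.03% of all tested probes. The table was selected on this same contrast, so nothing is read from that share. These were Ifi27, Ifi30, Ifi35, Ifit1, Ifit3b, Irf7, Isg15, Oas1a, Oas1g and Usp18. Isg15, a ubiquitin-like protein, had log2 signals of 14.05, 14.02 and 14.44 in Apcfl/fl HCC and of 10.83, 10.90 and 11.15 in Apc+/+ liver, a rise of 3.28 (SE 0.23, adjusted p = 0.0167). Usp18, which removes Isg15 from proteins, rose by 4.04 (SE 0.46, adjusted p = 0.0332).

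The guanylate-binding protein genes split the HCC samples in the way the class II pathway genes did. Gbp4 had 10.07, 10.20 and 7.34 in Apcfl/fl HCC against 5.14, 6.11 and 5.78 in Apc+/+ liver, a change of 3.07 (SE 0.87, adjusted p = 0.158). Gbp10, Gbp6 and Gbp8 had changes of 3.14, 3.04 and 3.03, and Apcfl/fl replicate 3 minus the mean of replicates 1 and 2 was between -3.12 and -2.61 on the log2 scale for these 4 genes. These genes lie in a cluster of similar sequence, so their probes may overlap in what they read. Ifi27l2a ran the other way, with 13.61, 13.54 and 15.86 in Apcfl/fl HCC against 11.47 to 12.35 in Apc+/+ liver. Over the 24 genes replicate 3 was above in 8 and below in 16, and no replicate of its kind allows a test.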
